A study of Homo sapiens with 12 samples.

Results

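The MYC, MAX and MXD network was followed in HCT116 and PANC1 cells through its 8 members MYC, MAX, MXD1, MXD3, MXD4, MXI1, MNT and MLX, chosen by gene name. Each member had 1 row among the 34687 rows of the table, which holds signal intensities from Illumina HumanHT-12 v4 arrays, glass slides whose probes bind labelled copies of cellular RNA and are read as brightness. HCT116 is a human colon cancer line and PANC1 a human pancreatic cancer line, and both were given either 0.05% DMSO, the solvent, or 10 uM of ICG-001 or C646. ICG-001 binds the acetyltransferase CBP and blocks its contact with beta-catenin, while C646 competes with acetyl-CoA for the catalytic pocket of p300 and CBP. Cells were collected after 12 or 96 h, which gives 12 groups, and every group has 1 column of values. The labels give 2 arrays averaged into each of 11 columns and 3 arrays into the last, PANC1 given ICG-001 at 12 h.

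No spread between replicates can be had from such means, so differences below are sizes between 2 columns with no test, and a gene was called higher or lower at a change of 1.5-fold. Their precision is limited by these array numbers. A gene entered a comparison when its signal was above the detection limit in at least 1 of the 2 columns. That limit, set a fixed number of SDs above the background peak of a column, lay between 143 and 144 in HCT116 and between 135 and 139 in PANC1. Rows that never passed the limit in a line had log2 ratios with an SD of 0.062 to 0.073, which describes the scatter of dim signals only. Because the authors left background in the signal, the ratio of a dim gene understates its change. The columns come from whole cultures, in which fewer cells expressing a gene and less RNA per cell cannot be told apart.

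The groups have limits as models that matter for these genes. Each cell type is 1 established line. Per the study's methods the 96 h cultures were started less dense than the 12 h cultures, were passaged and received fresh medium and drug each day, so exposure time, density and passage cannot be told apart. Both drugs were compared with the same DMSO column of a line and time, so the changes with the drugs share that column. The epithelial genes EPCAM, CDH1, KRT8 and KRT18 were above the limit in every column of both lines, as was the intestinal factor CDX2, and KRT7 was above it in every PANC1 column. The intestinal gene VIL1 was under the limit in all 12 columns and LGALS4 in all 6 HCT116 columns. The mesenchymal gene VIM was above it in all 12 columns, its HCT116 signals lying between 257 and 335 and its PANC1 signals between 14637 and 18144, and ZEB1 was above it in 5 of 6 PANC1 columns and in none of HCT116. Of 8 markers of blood, endothelial and stromal cells, 7 were under the limit in every column and COL1A1 was the exception, with the summed signal of the list running from 1051 to 1129 in HCT116 and from 1009 to 1209 in PANC1.

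MYC is a transcription factor that drives growth, ribosome production and cell division, and it binds DNA only as a pair with MAX, at sites called E-boxes. MXD1, MXD3, MXD4, MXI1 and MNT also pair with MAX, compete for the same sites and recruit SIN3 and histone deacetylases, so they oppose MYC. MXD proteins are best known from differentiating and resting cells. MLX is a MAX-like partner that pairs with the glucose-responsive factors MLXIP and MLXIPL and with some of the repressors. In colon cancer MYC is a classical target of beta-catenin and TCF factors, the route that ICG-001 was designed to block.

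RefSeq promoter entries (GRCh38.p14) were matched for 7 of the 8 members, 10 entries in all. The 250 bases before the transcription start are shown for 5 of them, read on the strand of the gene. MXD4 and MXD1 are shown because they passed 1.5-fold in both lines, MNT and MLX because they hold the E-box that MYC and its rivals bind, and MXD3 because it holds the core of a TCF site. Capitals mark CACGTG, the E-box, which reads the same on both strands, or CTTTGA, the TCF core, searched on both strands. The stretch of MXD4 lies at chr4:2262110-2262359 (minus strand), that of MXD1 at chr2:69914859-69915108 (plus), MNT at chr17:2401061-2401310 (minus), MLX at chr17:42566850-42567099 (plus) and MXD3 at chr5:177312753-177313002 (minus).
MXD4: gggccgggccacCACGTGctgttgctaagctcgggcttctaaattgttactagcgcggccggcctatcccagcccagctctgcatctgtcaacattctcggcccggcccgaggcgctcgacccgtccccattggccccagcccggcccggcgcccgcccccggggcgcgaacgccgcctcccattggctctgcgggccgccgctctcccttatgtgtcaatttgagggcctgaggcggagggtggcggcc
MXD1: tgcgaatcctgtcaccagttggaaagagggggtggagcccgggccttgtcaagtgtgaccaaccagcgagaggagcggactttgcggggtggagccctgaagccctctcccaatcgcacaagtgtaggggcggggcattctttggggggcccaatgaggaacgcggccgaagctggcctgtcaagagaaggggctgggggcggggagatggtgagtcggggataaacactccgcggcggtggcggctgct
MNT: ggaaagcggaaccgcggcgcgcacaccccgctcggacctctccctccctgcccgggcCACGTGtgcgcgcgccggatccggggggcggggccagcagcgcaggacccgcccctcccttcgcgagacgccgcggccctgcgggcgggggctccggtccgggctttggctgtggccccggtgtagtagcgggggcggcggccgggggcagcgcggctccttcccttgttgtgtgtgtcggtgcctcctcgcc
MLX: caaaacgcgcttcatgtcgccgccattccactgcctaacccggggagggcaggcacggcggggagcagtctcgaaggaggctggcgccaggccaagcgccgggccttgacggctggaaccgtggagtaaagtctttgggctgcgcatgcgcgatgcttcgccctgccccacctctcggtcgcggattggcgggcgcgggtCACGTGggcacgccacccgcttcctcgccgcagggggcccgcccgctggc
MXD3: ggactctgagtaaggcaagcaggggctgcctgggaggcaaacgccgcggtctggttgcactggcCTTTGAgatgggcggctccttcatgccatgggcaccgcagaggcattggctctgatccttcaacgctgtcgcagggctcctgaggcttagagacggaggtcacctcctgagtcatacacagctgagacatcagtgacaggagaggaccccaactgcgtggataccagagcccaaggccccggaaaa

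The E-box began 238 bases before the start in MXD4, 193 bases before it in MNT and 50 bases before it in MLX. Over 300 bases, 50 of them after the start, CACGTG was found in 7.26% of 35116 human promoters and CTTTGA in 12.9%. The TCF core of MXD3 began 186 bases before the start. Neither set of letters was in the entries of MXD1, in the 3 entries of MXI1 or in the 2 entries of MAX. A match describes letters only, and binding was not measured.

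MYC itself had the furthest fall with a drug of all members. In HCT116 its signal was 3267 at 12 h and 4307 at 96 h in DMSO, 4164 and 2190 under ICG-001, and 3623 and 3929 under C646. The ICG-001 column at 96 h was thus the lowest of the 6, and the DMSO column of the same time was the highest. In PANC1 the signals were 1045 and 1272 in DMSO, 1507 and 1445 under ICG-001, and 1375 and 1343 under C646. There DMSO at 12 h was lowest, DMSO at 96 h came next, and all 4 drug columns lay above both.

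**Figure D1:**
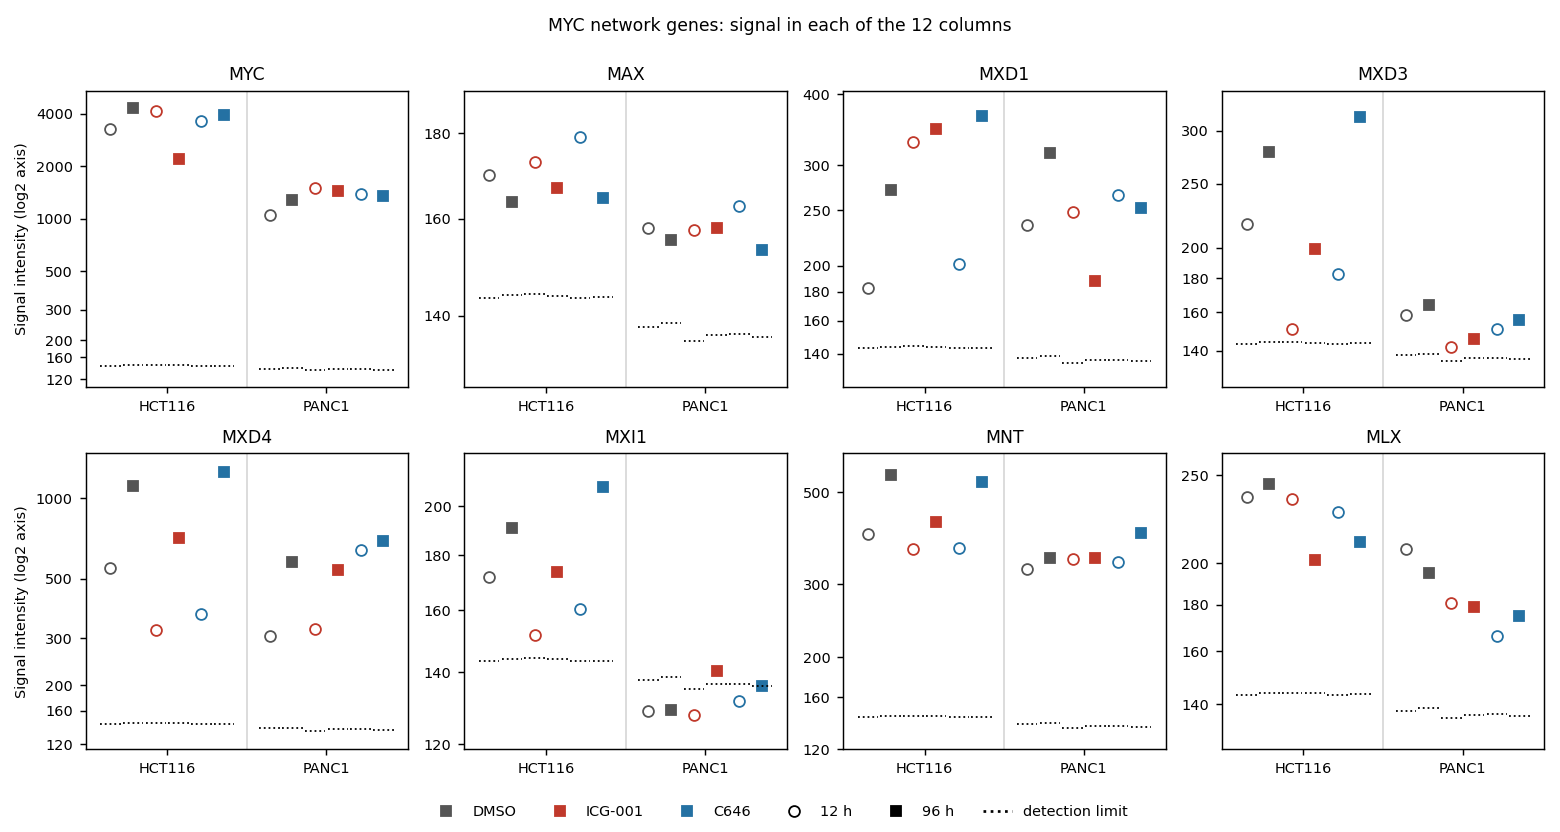
Signal intensity of each member in the 12 columns (y axis, log2 scale, with its own range in each panel; open circles 12 h, filled squares 96 h, colours the treatments), with the detection limit of each column as a dotted line; each point is the authors' mean of 2 or 3 arrays, so no error bars can be drawn. MYC under ICG-001 at 96 h stands lowest in HCT116, MXD4 is higher at 96 h than at 12 h in every treatment of both lines, and MAX and MXI1 lie close to the limit.

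At 96 h in HCT116, MYC was 1.97-fold lower under ICG-001 than with DMSO, a log2 change of -0.98, and 1.17% of the genes above the limit were as low or lower. Against the DMSO column of 12 h, a comparison added after the data were seen, the same column was 1.49-fold lower, just inside the threshold. The other 7 drug changes of MYC stayed under 1.5-fold. The highest of them was 0.53 on the log2 scale, in PANC1 under ICG-001 at 12 h, and against the PANC1 DMSO column of 96 h this value was 0.24. In PANC1 all 4 changes were above 0, from 0.08 to 0.53, whereas in HCT116 both drugs gave values above 0 at 12 h and below 0 at 96 h. The HCT116 signs depended on the control. Against the DMSO column of the other time, the HCT116 values were -0.05 under ICG-001 and -0.25 under C646 at 12 h, and -0.58 and 0.27 at 96 h, so that 3 of 4 turned.

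MAX, the partner shared by MYC, the MXD proteins and MNT, showed the narrowest range. Its signal ran from 164 to 179 over the HCT116 columns and from 153 to 163 over the PANC1 columns. All 12 values were above the detection limit but near it, so a change could have been understated. The 8 drug changes of MAX lay between -0.02 and 0.08 on the log2 scale, about the scatter of the dim rows.

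MXD1, a repressor induced when many cell types leave the cycle, passed 1.5-fold upwards in one line and downwards in the other, at different times. In HCT116 its signal was 183 at 12 h and 271 at 96 h in DMSO, 329 and 348 under ICG-001, and 201 and 367 under C646. The DMSO and C646 columns of 12 h were the low ones and both drugs at 96 h the high ones. In PANC1 the signals were 236 and 315 in DMSO, 248 and 188 under ICG-001, and 266 and 252 under C646, so that DMSO at 96 h was the highest column and ICG-001 at 96 h the lowest. MXD1 rose 1.80-fold under ICG-001 at 12 h in HCT116, where 1.85% of genes rose as far. It fell 1.67-fold under ICG-001 at 96 h in PANC1, where 1.82% of genes fell as far. Neither call held against the DMSO column of the other time, where MXD1 was 1.22-fold higher and 1.25-fold lower. In the PANC1 comparison 2 of the 9 line markers above the limit fell, EPCAM with -0.78 and KRT8 with -1.06, beside 3.61% of all genes. That list also holds VIM and ZEB1, and 4 of the 9 were above 0. In HCT116 under ICG-001 at 12 h, 1 of 7 markers above the limit rose, beside 4.83% of all genes, and 0 fell, beside 4.17%. It was the duct keratin KRT7, with 1.46 on the log2 scale, while 2 of the 7 were below 0. The part of these markers in the MXD1 values was not tested.

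MXD4, the member with the widest range, is a repressor of the same family. In HCT116 its signal was 548 at 12 h and 1113 at 96 h in DMSO, 322 and 713 under ICG-001, and 370 and 1256 under C646. In PANC1 it was 305 and 578 in DMSO, 324 and 537 under ICG-001, and 641 and 693 under C646. The highest column was 3.90 times the lowest in HCT116 and 2.27 times in PANC1. In HCT116 all 3 columns of 12 h were below all 3 columns of 96 h, and in PANC1 C646 was already high at 12 h.

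With ICG-001 in HCT116, MXD4 fell 1.70-fold at 12 h and 1.56-fold at 96 h. With C646 in the same line it was lower by 0.57 on the log2 scale at 12 h, short of the threshold, and higher by 0.17 at 96 h. In PANC1 MXD4 rose 2.10-fold under C646 at 12 h, further than any other member with either drug, and 1.12% of genes rose as far. The call at 96 h in HCT116 depends on the control, since against the DMSO column of 12 h MXD4 was 1.30-fold higher under ICG-001. Against the DMSO column of 96 h the PANC1 value of C646 at 12 h was 1.11-fold. MXD4 was thus about as high in PANC1 after 12 h of C646 as after 96 h of DMSO.

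MXD3, a repressor described in dividing cells, had signals in HCT116 of 217 and 279 in DMSO, 151 and 199 under ICG-001, and 183 and 314 under C646 at 12 and 96 h. ICG-001 at 12 h was the lowest column, not far above the limit, and C646 at 96 h the highest. The log2 changes under ICG-001 were -0.53 and -0.49, and under C646 -0.25 and 0.17, none of them past 1.5-fold. After removal of background by normexp, a model of signal plus background, the ICG-001 values were -1.15 and -0.82 and both passed it. In PANC1 MXD3 ran only from 142 to 164, and all 4 changes were below 0, the furthest being -0.17.

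MXI1, also called MXD2, was dim. It ran from 152 to 208 in HCT116, under ICG-001 at 12 h lowest and C646 at 96 h highest, and its drug changes there lay between -0.18 and 0.13 on the log2 scale. In PANC1 it was above the limit in 2 of 6 columns, ICG-001 and C646 at 96 h. Its changes at 12 h there were therefore not counted among the calls, although they entered the median of the repressors given below. MNT, the most broadly expressed antagonist of MYC, had signals in HCT116 of 397 and 551 in DMSO, 365 and 423 under ICG-001, and 366 and 530 under C646. Against the DMSO column of its own time, all 4 of its changes in HCT116 were below 0, down to -0.38 under ICG-001 at 96 h, and all 4 in PANC1 were above 0, up to 0.20 under C646 at 96 h. None of these reached 1.5-fold. Against the other column, the 96 h values in HCT116 were 0.09 under ICG-001 and 0.42 under C646. The 12 h values against that column were -0.59 under either drug, each 1.51-fold lower and so just past the threshold.

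MLX was the member whose changes were all below 0. In HCT116 the signals were 237 and 244 in DMSO, 235 and 201 under ICG-001, and 228 and 211 under C646. In PANC1 they were 207 and 195 in DMSO, 181 and 179 under ICG-001, and 167 and 175 under C646. In PANC1 both DMSO columns were above all 4 drug columns. The 8 changes ran from -0.32, under C646 at 12 h in PANC1, to -0.01, under ICG-001 at 12 h in HCT116, and none passed 1.5-fold.

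**Figure D2:**
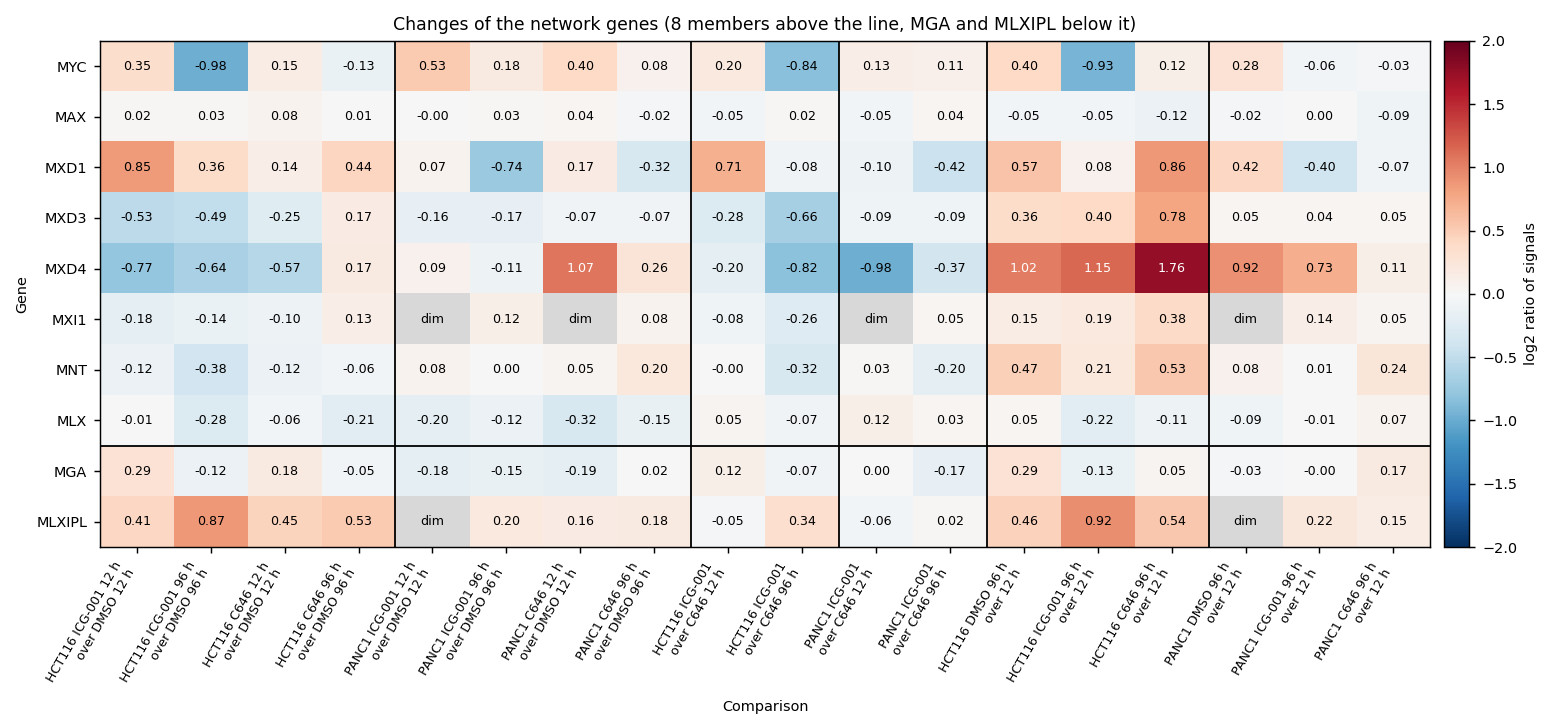
Log2 ratio of the 2 signals (number and colour, red higher, blue lower) for the 8 members and for MGA and MLXIPL (rows) in the 18 comparisons within a cell line (columns: drug over DMSO, ICG-001 over C646, and 96 h over 12 h); cells marked dim were under the detection limit in both columns. MXD4 has the highest value, 1.76, for C646 at 96 h over 12 h in HCT116, and the lowest values, both -0.98, are those of MYC for ICG-001 over DMSO at 96 h in HCT116 and of MXD4 for ICG-001 over C646 at 12 h in PANC1.

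Counted over the members, ICG-001 in HCT116 moved 2 of 8 at 12 h (MXD1 up, MXD4 down), where 9.00% of all genes above the limit passed 1.5-fold. At 96 h it moved 2 of 8 (MYC and MXD4, both down), where 10.4% of genes passed. With C646 in HCT116 0 of 8 members passed, beside 4.12% of genes at 12 h and 3.14% at 96 h. In PANC1, ICG-001 moved 0 of 7 members at 12 h and 1 of 8 at 96 h (MXD1 down), beside 2.53% and 7.52% of genes. C646 in PANC1 moved 1 of 7 at 12 h (MXD4 up) and 0 of 8 at 96 h, beside 6.79% and 4.02%. With 7 or 8 members, 1 or 2 calls are few, and nothing is read from their share. The median over members was lowest under ICG-001 at 96 h in HCT116, -0.33 on the log2 scale, where the median over all genes was 0.01 and 6 of 8 members were below 0.

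**Figure D3:**
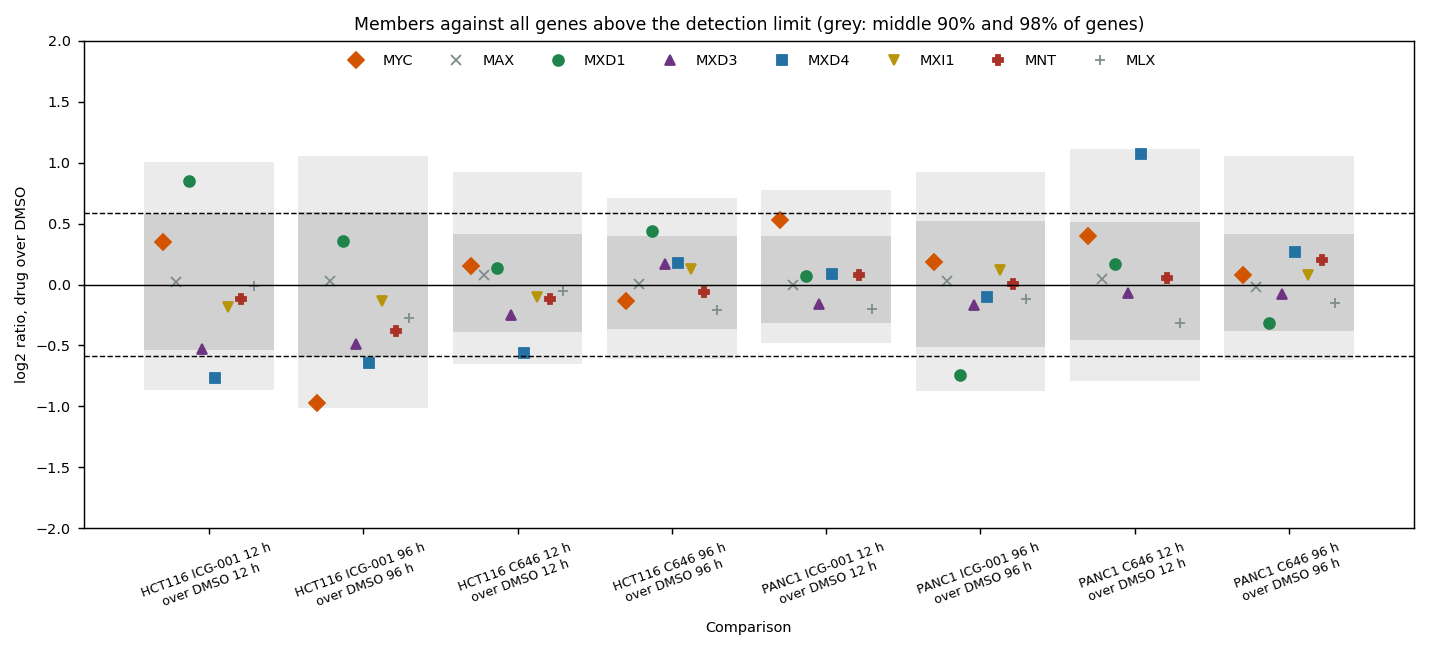
Log2 ratio of drug over DMSO (y axis) for each member above the detection limit (symbols) in the 8 drug comparisons (x axis), over grey bands holding the middle 90% (dark) and 98% (light) of all genes above the limit; dashed lines mark 1.5-fold. MYC at 96 h of ICG-001 in HCT116 lies near the lower edge of the light band, at -0.98 beside a 1st percentile of -1.02, and MXD4 at 12 h of C646 in PANC1 near the upper edge, at 1.07 beside a 99th percentile of 1.11.

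The drugs were next compared with each other at the same dose and time, without the DMSO column. In HCT116 at 12 h 1 of 8 members passed 1.5-fold, beside 6.28% of genes: MXD1 was 1.64-fold higher under ICG-001 than under C646. At 96 h 3 of 8 passed, all lower under ICG-001, beside 6.55% of genes. MYC was 1.79-fold lower, MXD4 1.76-fold lower and MXD3 1.58-fold lower, and 7 of the 8 members were below 0. In PANC1 at 12 h 1 of 7 passed, MXD4, which was 1.98-fold lower under ICG-001, beside 2.52% of genes in either direction, and only 0.0627% of genes were as low. At 96 h in PANC1 0 of 8 passed, beside 6.84% of genes, and the furthest was MXD1 with -0.42 on the log2 scale. No interval for these differences can be given from 1 column per group, so a member that did not pass cannot be said to respond alike to both drugs.

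MXD4 was also higher after the longer culture, with or without a drug. In HCT116, MXD4 was 2.03-fold higher at 96 h than at 12 h in DMSO, 2.22-fold higher under ICG-001 and 3.39-fold higher under C646. In DMSO it was the 1 member of 8 that passed, beside 3.12% of genes, and only 0.132% of genes rose as far. With ICG-001 MYC also passed, 1.90-fold lower at 96 h, which makes 2 of 8 beside 6.90% of genes, and 0.578% of genes fell as far. With C646 3 of 8 passed, beside 7.08% of genes, the others being MXD1, 1.82-fold higher, and MXD3, 1.72-fold higher. All 5 repressors were above 0 in each of the 3 HCT116 treatments, although MXI1 and MNT did not reach 1.5-fold in any of them, with at most 0.38 and 0.53 on the log2 scale.

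In PANC1, MXD4 was 1.89-fold higher at 96 h in DMSO, as the 1 member of 7 that passed beside 1.33% of genes. It was 1.66-fold higher under ICG-001, the 1 of 8 that passed beside 3.99%. With C646 it was 1.08-fold higher and 0 of 8 members passed, beside 0.483% of genes. Against time, MYC in DMSO had log2 values of 0.40 in HCT116 and 0.28 in PANC1, neither past 1.5-fold. The 96 h cultures in DMSO thus had higher MXD4 in both lines, while their MYC signal was not below that of the 12 h cultures.

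**Figure D4:**
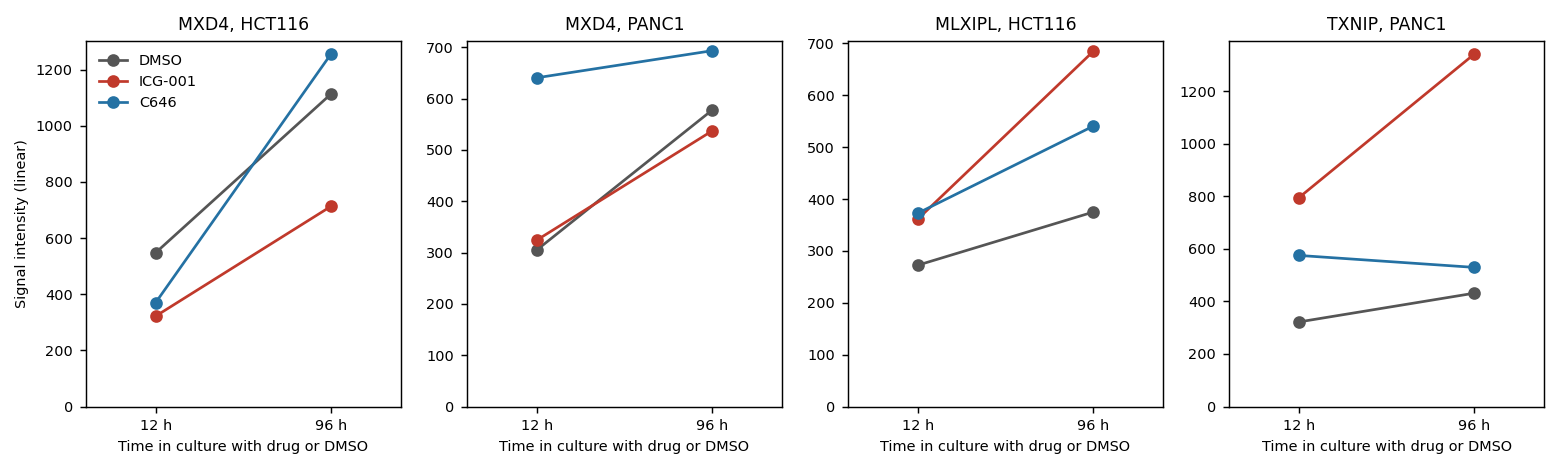
Signal intensity on a linear scale from 0 (y axis) at 12 and 96 h (x axis) for MXD4 in HCT116 and PANC1, MLXIPL in HCT116 and TXNIP in PANC1; lines join separate cultures of the same treatment and each point is the authors' mean of 2 or 3 arrays. In PANC1, MXD4 is already 641 under C646 at 12 h beside 305 with DMSO, and TXNIP reaches 1341 under ICG-001 at 96 h.

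The change of MYC minus the median change of its 5 repressors was taken as one value for the balance of changes, on the log2 scale. It is a difference of changes, not of levels. In HCT116 it was 0.53 under ICG-001 and 0.27 under C646 at 12 h, and -0.59 and -0.30 at 96 h. The change of MYC was thus above the median change of the repressors at 12 h and below it at 96 h, although MXD1 by itself rose by 0.85 under ICG-001 at 12 h, where MYC was at 0.35. In PANC1 it was 0.46 under ICG-001 and 0.34 under C646 at 12 h, 0.29 under ICG-001 at 96 h and 0.0019 under C646 at 96 h. The median was taken over all 5 repressors, including MXI1 where it was under the limit. For C646 at 96 h in PANC1 the median, 0.08, was the change of MXI1, whose DMSO column was under the limit. At 96 h of ICG-001 in HCT116 the repressors were lower too, with 4 of 5 below 0 and a median of -0.38, so the value is smaller than the change of MYC.

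Of 5 further genes of the network, 3 were under the limit in all 12 columns: MYCN, MYCL and MLXIP. MGA, a large protein that also pairs with MAX and represses, ran from 244 to 300 in HCT116 and from 278 to 316 in PANC1, and none of its drug changes passed 1.5-fold. MLXIPL, also called ChREBP, the glucose-responsive partner of MLX, had signals in HCT116 of 272 and 375 in DMSO, 361 and 684 under ICG-001, and 373 and 540 under C646. Each drug column was above the DMSO column of its time, with log2 changes of 0.41, 0.87, 0.45 and 0.53 for ICG-001 at 12 and 96 h and C646 at 12 and 96 h. The 12 h values were -0.05 and -0.01 against the DMSO column of 96 h. Only ICG-001 at 96 h passed, 1.83-fold higher. In PANC1 MLXIPL lay between 122 and 154 and was above the limit in 3 of 6 columns, all of them drug columns. Its 4 drug changes in PANC1 were all above 0, from 0.11 to 0.20, and such dim signals understate a change.

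Of 5 genes known to respond to the MLX partners, TXNIP, an inhibitor of glucose uptake, was named because it passed in at least 2 comparisons. In PANC1 its signal was 322 and 431 in DMSO, 795 and 1341 under ICG-001, and 575 and 530 under C646 at 12 and 96 h. All 4 drug columns were above both DMSO columns. The log2 changes were 1.30 and 1.64 under ICG-001 and 0.84 and 0.30 under C646, the last not past 1.5-fold. In HCT116 TXNIP was under the limit in all 6 columns, from 121 to 135. The calls of MLXIPL and of TXNIP were therefore in different lines, although the dim MLXIPL signals in PANC1 were also above DMSO. Over the list in HCT116, named after their values were seen, ARRDC4 rose by 1.92 at 12 h of ICG-001 and HK2, also on the nucleolar and growth list, fell by 0.84 at 96 h, 1 of 4 genes each, while 0 of 4 passed under C646. The shares of all genes past 1.5-fold there were 9.00% and 10.4% under ICG-001 and 4.12% and 3.14% under C646. In PANC1 TXNIP was the only gene of the list to pass in a drug comparison. It was 1 of 5 genes at 12 h and at 96 h of ICG-001 and at 12 h of C646, with 0 of 4 at 96 h of C646. The shares of all genes past 1.5-fold in PANC1 were 2.53% and 7.52% under ICG-001 and 6.79% and 4.02% under C646.

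Genes that MYC activates went both ways where MYC itself fell. A list of 57 nucleolar and growth genes, widely used as MYC targets, had 54 members above the limit in HCT116 and 55 in PANC1. At 96 h of ICG-001 in HCT116, where MYC was 1.97-fold lower, 5 of 54 rose and 7 fell, and the median log2 change was -0.03 beside 0.01 over all genes. At 12 h the counts were 3 up and 6 down with a median of 0.00. With C646 they were 3 up and 0 down at 12 h with a median of 0.15, and 0 up and 2 down at 96 h with a median of -0.04. In PANC1, where no MYC value was below 0, the medians were -0.08 and -0.17 under ICG-001 and -0.11 and -0.13 under C646 at 12 and 96 h. Of 55 genes, 0 rose and 1 fell, then 1 rose and 10 fell under ICG-001, and 1 rose and 3 fell, then 0 rose and 1 fell under C646. Over all genes in HCT116, 4.83% rose and 4.17% fell at 12 h and 5.20% and 5.17% at 96 h of ICG-001, and 2.59% and 1.53%, then 1.91% and 1.23%, under C646. In PANC1 these shares were 2.19% and 0.338%, then 3.91% and 3.61%, under ICG-001, and 4.05% and 2.74%, then 2.83% and 1.19%, under C646.

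The ends of this list were named by mean log2 change over the 4 drug comparisons of a line. In HCT116 AIMP2, a scaffold of the aminoacyl-tRNA synthetase complex, RABEPK and the ribosome biogenesis factor NIP7 were highest, with means of 0.71, 0.63 and 0.55. WDR43, a nucleolar factor, the heterochromatin protein CBX3 and the importin IPO4 were lowest, with -0.51, -0.49 and -0.48. AIMP2 went from 2045 to 3986 at 12 h and from 1584 to 3726 at 96 h under ICG-001. In PANC1 PA2G4, GRWD1 and the replicative helicase subunit MCM5 were lowest, with -0.89, -0.60 and -0.56, and MAP3K6, PUS1 and the mitotic kinase PLK1 highest, with 0.40, 0.30 and 0.29. PA2G4 went from 4254 to 2779 at 12 h and from 3406 to 1630 at 96 h under ICG-001, and under C646 to 2330 and 1684.

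**Figure D5:**
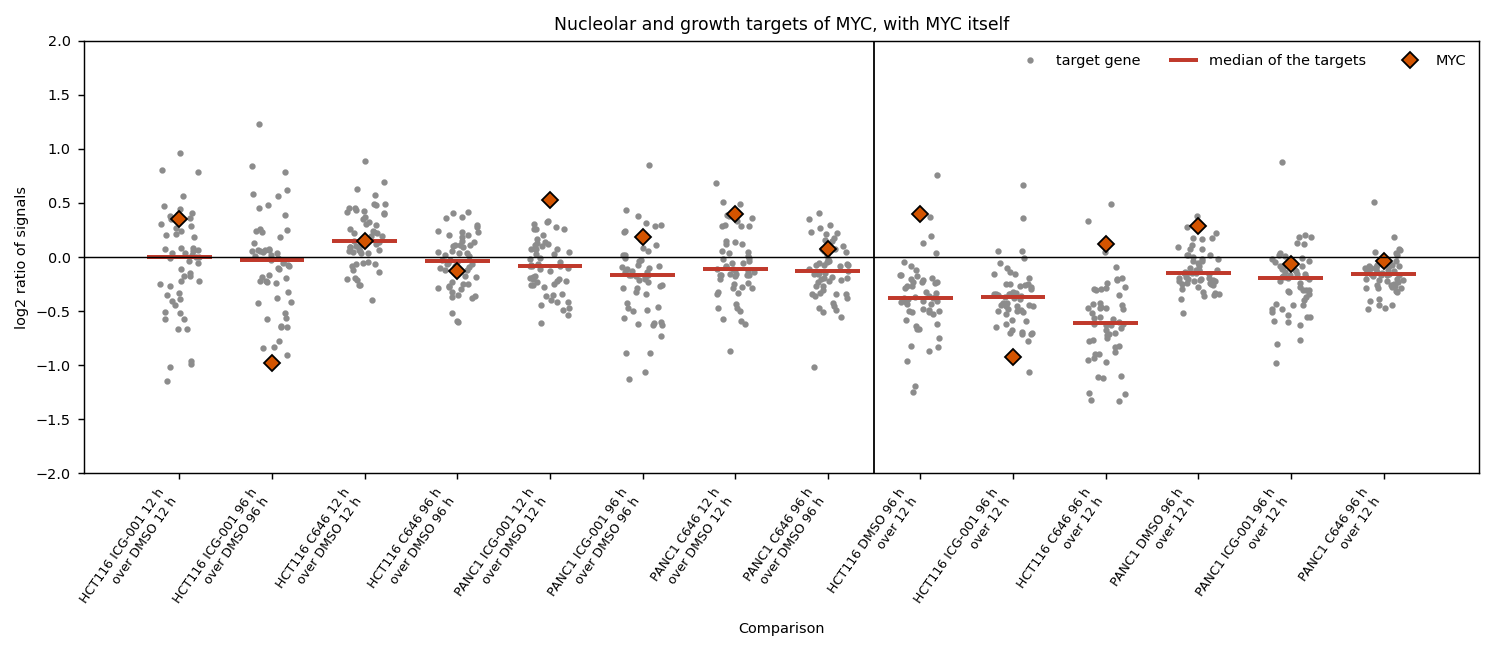
Log2 ratio of signals (y axis) of each nucleolar and growth target of MYC above the detection limit (grey points), their median (red bar) and MYC itself (orange diamond) in the 8 drug comparisons (left) and the 6 comparisons of 96 h over 12 h (right). The medians stay between -0.17 and 0.15 with drugs, while over time in HCT116 they lie at -0.38 in DMSO, -0.37 under ICG-001 and -0.61 under C646.

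Over time the same list was lower in HCT116 in every treatment. At 96 h against 12 h, 12 of 54 genes fell and 1 rose in DMSO with a median of -0.38, 11 fell and 1 rose under ICG-001 with a median of -0.37, and 28 fell and 0 rose under C646 with a median of -0.61. Over all genes 1.57%, 2.79% and 3.28% fell by 1.5-fold in these comparisons. MYC itself was higher by 0.40 and 0.12 on the log2 scale in DMSO and C646, neither past 1.5-fold, and fell under ICG-001 only. In PANC1 0 of 55 genes passed in DMSO or C646, with medians of -0.15 and -0.16, and 6 fell and 1 rose under ICG-001 with a median of -0.19. Over all genes in PANC1, 0.336% fell in DMSO, 0.0805% under C646 and 1.76% under ICG-001, where 2.23% rose.

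A shorter list of 14 classical MYC targets had 12 or 13 genes above the limit, with medians of -0.22 and -0.28 under ICG-001 and -0.02 and -0.07 for C646 at 12 and 96 h in HCT116. In PANC1 the medians were -0.17 and -0.18 under ICG-001 and -0.20 and -0.26 for C646. Its members went both ways. ODC1, the first enzyme of polyamine synthesis and a textbook MYC target, went up in HCT116 under ICG-001 from 6716 to 10543 at 12 h and from 3812 to 6164 at 96 h, changes of 0.65 and 0.69 on the log2 scale. PTMA, a histone-binding acidic protein, went down in HCT116 under ICG-001 from 8766 to 5206 and from 10208 to 3983, changes of -0.75 and -1.36. Under C646 its HCT116 changes were -0.43 and -0.61. In PANC1 PTMA was lower too, by -0.47 and -0.94 under ICG-001 and by -0.71 and -0.73 under C646, so that 6 of its 8 changes passed 1.5-fold.

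NCL, the major nucleolar protein nucleolin, was lower by -0.83 at 96 h of ICG-001 in HCT116 and by -0.82 in PANC1. LDHA, which makes lactate, was lower by -0.94 at 12 h of ICG-001 in HCT116 and by -0.81 at 96 h in PANC1. TFRC, the transferrin receptor, passed only in PANC1, with -1.20 for ICG-001 at 96 h and -0.62 and -0.61 for C646 at 12 and 96 h. At 96 h of ICG-001 in HCT116, with MYC at its lowest, 1 of 12 classical targets rose and 2 fell, beside 5.20% and 5.17% of all genes. At 12 h of it, 1 of 12 rose and 2 fell, beside 4.83% and 4.17%. In PANC1 at 96 h of ICG-001, 2 of 13 rose and 4 fell, beside 3.91% and 3.61%. Those that rose, named after their values were seen, were CCND2 with 0.97 and SHMT2 with 0.61. In PANC1 0 of 13 passed at 12 h of ICG-001, beside 2.53% of all genes. With C646 there, 0 of 12 rose and 2 fell at each time. The shares of all genes were 4.05% and 2.74% at 12 h and 2.83% and 1.19% at 96 h.

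Genes that MYC represses include inhibitors of the cell cycle. GADD45A, a stress-induced growth arrest gene, had signals in HCT116 of 750 and 1055 in DMSO, 2221 and 2508 under ICG-001, and 692 and 1610 under C646. In PANC1 they were 637 and 654 in DMSO, 1121 and 2202 under ICG-001, and 898 and 1055 under C646. It rose in 6 of the 8 drug comparisons. CDKN1A, the inhibitor p21, had signals in HCT116 of 1864 and 1968 in DMSO, 3890 and 4269 under ICG-001, and 2042 and 5072 under C646, so that 3 of its 4 changes there passed, with 1.06, 1.12 and, for C646 at 96 h, 1.37 on the log2 scale. In PANC1 it went from 551 to 1006 under C646 at 12 h, a change of 0.87. CDKN1C, the inhibitor p57, went the other way in HCT116, from 297 to 174 and from 415 to 254 under ICG-001. Over the 8 genes of the list, 2 rose and 1 fell under ICG-001 at 12 h and again at 96 h in HCT116, while 0 passed at 12 h and 3 rose at 96 h under C646, namely CDKN1A, GADD45A and NDRG1, the last by 0.75 on the log2 scale and named after its value was seen. Of all genes in HCT116, 4.83% and 5.20% rose and 4.17% and 5.17% fell under ICG-001 at 12 and 96 h, and 1.91% rose at 96 h of C646. In PANC1 only 5 genes of the list were above the limit at 12 h and 6 at 96 h. Of these, 1 rose and 0 fell in each of the 4 comparisons. Beside them 2.19% and 3.91% of all genes were higher under ICG-001 and 4.05% and 2.83% under C646. CDKN1A and GADD45A are also p53 targets, and what part MYC has in their changes was not tested.

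Cofactors of the network were counted in the same way. Of 16, among them TRRAP, the SIN3 proteins and HDAC1 and HDAC2 that the repressors recruit, 0 passed in any of the 4 HCT116 comparisons or under ICG-001 in PANC1, beside 9.00%, 10.4%, 4.12% and 3.14% of all genes in HCT116 and 2.53% and 7.52% in PANC1. With C646 in PANC1 2 rose at 12 h, TRRAP by 0.82 and KAT2A, beside 4.05% of all genes, and 1 at 96 h, KAT2A again, beside 2.83%, where TRRAP was named after its value was seen. KAT2A, the acetyltransferase GCN5 that MYC recruits, went from 1107 to 1784 at 12 h and from 1125 to 1768 at 96 h, changes of 0.69 and 0.65 on the log2 scale. Its ICG-001 changes in PANC1 were 0.01 and 0.08. Of 12 regulators of MYC protein turnover, SKP2, a ubiquitin ligase subunit for MYC and p27, was named. In HCT116 it went from 953 to 489 at 12 h and from 608 to 402 at 96 h under ICG-001, changes of -0.96 and -0.60, and by -0.06 and -0.19 under C646. In PANC1 its changes under ICG-001 were -0.47 and -0.40. The other calls of this list, named after their values were seen, were AURKA with -1.06 at 96 h of ICG-001 in HCT116, CIP2A with -0.77 at 96 h of ICG-001 in PANC1 and HUWE1 with -0.66 at 12 h of C646 in PANC1. In HCT116 1 of 12 thus fell at 12 h and 2 of 11 at 96 h of ICG-001, beside 4.17% and 5.17% of all genes. In PANC1 1 of 12 fell in each of these comparisons, beside 3.61% for ICG-001 and 2.74% for C646. In the remaining drug comparisons 0 passed, beside 4.12% and 3.14% under C646 in HCT116. The shares in PANC1 were 2.53% at 12 h of ICG-001 and 4.02% at 96 h of C646. Protein levels were not analysed here.

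Genes whose signals ran most like those of a member were sought by Pearson's r over the 12 columns, each centred on its line, among 2438 genes that spanned at least 1.5-fold in both lines. The columns share lines, DMSO controls and times, so r is given as a description. MXD4 was most like PHF21A, NLGN2 and FAM117B, with r of 0.97, 0.97 and 0.96. The 99th percentile of r over the genes searched was 0.86 for MXD4, 0.82 for MXD3, 0.65 for MXD1, 0.84 for MNT and 0.54 for MYC. MXD3 was most like P4HA1, SLC2A12 and DEPDC6, with 0.95, 0.89 and 0.89. MXD1 was most like GPRC5A, the glucose transporter SLC2A1 and IER3, with 0.90, 0.88 and 0.86. MNT was most like SAT1 and ANKRD10, with 0.95 and 0.93, the next being a row without a gene symbol, with 0.91. The match of MNT with SAT1 was 0.997 within HCT116 and 0.62 within PANC1. The r of MYC were lower, DKK1 and INTS1 with 0.75 each and CNTNAP1 with 0.74, though above the 99th percentile for MYC. The match of MYC with DKK1, a secreted WNT antagonist, was 0.93 within HCT116 and -0.34 within PANC1.

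Between the lines, levels can be set side by side only as a description, since the distributions of the values differ between the lines as if they were normalized separately. In DMSO, MYC was 3.12-fold higher in HCT116 than in PANC1 at 12 h and 3.39-fold at 96 h. MXD4 was 1.80-fold and 1.93-fold higher in HCT116 at the same times. At 12 h these were the 2 members past 1.5-fold, beside 23.6% of genes, and at 96 h MXD3 with 1.70-fold and MNT with 1.59-fold made 4, beside 25.9%. MXD1 was the only member lower in HCT116, by -0.37 and -0.22 on the log2 scale. After quantile normalization over all 12 columns the MYC values were 3.22-fold and 3.61-fold.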

How the data were processed

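Per the file headers and the study's methods, the authors amplified and labelled total RNA and hybridised the labelled product to Illumina HumanHT-12 v4 arrays. They exported signal intensity, quantile normalized in GenomeStudio with no subtraction of background. They then deposited the mean of 2 arrays (3 in 1 column), from independent cultures, as linear intensity per gene name. Single arrays and detection calls were not analysed here, so there is no spread, test or p-value.

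Log2 ratios of 2 columns were computed as deposited with Python 3.11.15, numpy 2.4.6, pandas 2.3.3 and scipy 1.17.1, and figures with matplotlib 3.10.9. Genes above the detection limit (in SDs over the background peak) in at least 1 column were counted at 1.5-fold. Sorted log2 values differed on average by 0.0037 to 0.0093 between columns of a line and by 0.063 to 0.066 between lines. The alternatives were 1.2-fold and 2-fold thresholds, a limit at 5 SD, no limit, centring, quantile normalization over 12 columns, normexp (limma 3.58.1 in R 4.3.3, offset 16), the mean of the repressors and, added after seeing the data, the DMSO column of the other time. The counting step was tested on simulated data with 2-fold changes placed only in bright genes. That test therefore does not show how changes of dim members, or changes near 1.5-fold, are counted.

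Members and gene lists were chosen with earlier results of these data known. The text names all members and other network genes, short-list genes past 1.5-fold in at least 2 of 8 drug comparisons, the 3 highest and 3 lowest nucleolar targets of each line among those above the limit in all 4 comparisons, and the 3 genes most like each member that spans 1.5-fold in a line. The promoter table gave no entry for MYC.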

Additional observations from a re-analysis of the deposited data

Results flagged for a closer look

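Several genes went one way with both drugs in one cell line or time and the opposite way in the other. Both drugs share the DMSO column of their line and time, so their values are not independent, and none of these differences was tested. Means below are over the log2 changes with ICG-001 and C646.

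MYC at 96 h had a mean of -0.55 in HCT116 and 0.13 in PANC1, a difference of -0.69, and within HCT116 it had 0.25 at 12 h and -0.55 at 96 h, a difference of 0.80. MXD1 at 96 h had 0.40 in HCT116 and -0.53 in PANC1, a difference of 0.93, and within PANC1 it had 0.12 at 12 h and -0.53 at 96 h, a difference of 0.65. MXD4 at 12 h had -0.67 in HCT116 and 0.58 in PANC1, a difference of -1.25, where the PANC1 mean came from 1.07 under C646 and 0.09 under ICG-001, the latter about the scatter of dim rows. MGA at 12 h had 0.24 in HCT116 and -0.18 in PANC1, a difference of 0.42. These values also rest on which DMSO column was used. MYC in HCT116 differed by 0.40 between the DMSO columns of 12 and 96 h, and against the column of the other time it was -0.05 under ICG-001 and -0.25 under C646 at 12 h, and -0.58 and 0.27 at 96 h. MXD1 in PANC1 was, in the same order, -0.35 and -0.25 at 12 h and -0.33 and 0.10 at 96 h. For MXD4 at 12 h, the DMSO column of 96 h gave PANC1 values of -0.83 under ICG-001 and 0.15 under C646. The drugs thus no longer went the same way there, while the HCT116 values stayed negative, at -1.79 and -1.59. With that column MGA at 12 h had HCT116 values of 0.01 for ICG-001 and -0.11 for C646. Its PANC1 values became -0.15 and -0.16, so the lines were no longer opposed. Among all genes above the limit, the same kind of opposition was found between lines in 2.84% at 12 h and 2.76% at 96 h, and between times in 1.33% in HCT116 and 1.5% in PANC1.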

How the results depend on the processing

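Values within a line moved little with scaling: centring and quantile normalization over 12 columns left 140 of 140 values of the 8 members within the scatter of dim rows and all 19 of their calls in place, and the latter added 1. The median of all genes moved by at most 0.012. Removing background by normexp moved 75 of 140 values, kept all 19 calls and added 13. The causes were not tested.

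Calls were summed over comparisons, so a gene counts once for each comparison in which it passed. The shares of all genes at 1.5-fold are given above and were not computed at the other settings. With drugs in HCT116, member calls numbered 4 as reported, from 32 pairs of member and comparison. They numbered 12 at 1.2-fold, 0 at 2-fold, 8 with normexp and 9 against the DMSO column of the other time. In PANC1 member calls with drugs numbered 2, then 7 at 1.2-fold and 1 at 2-fold. For ICG-001 over C646 they numbered 4 in HCT116, then 7 and 0 at those thresholds, and 1 in PANC1, then 3 and 0, and 2 with normexp. Over time they numbered 6 in HCT116, then 13 and 3, and 11 with normexp, and 2 in PANC1, then 5 and 0. Calls of MYC targets with drugs, summed in the same way over the nucleolar and classical lists, numbered 34 in HCT116, then 112 and 4. Against the other DMSO column they numbered 92 there. In PANC1 they numbered 27, then 120 and 4.

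MYC minus the repressors was 0.81 with normexp for ICG-001 at 12 h in HCT116, and for C646 0.40 at 12 h and -0.40 at 96 h. Against the other DMSO column it was -0.67 for ICG-001 at 96 h and 0.34 for C646 at 12 h in HCT116. In PANC1 it was 0.38 for ICG-001 at 96 h, 0.15 for C646 at 12 h and 0.27 for C646 at 96 h against that column, and -0.16 for C646 at 96 h with normexp. With the mean of the repressors it was -0.72 for ICG-001 at 96 h in HCT116, and 0.36 for ICG-001 at 96 h and 0.15 for C646 at 12 h in PANC1. The other DMSO column turned 1 call, MXD4 with ICG-001 at 96 h in HCT116, to 0.38, and left 1 of 6 calls with drugs, MXD4 with ICG-001 at 12 h in HCT116, at -1.79.

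No paired analysis was possible because each group has 1 column, in which the replicate arrays were already averaged, and for the same reason no replicate was left out. The dim signals of MAX, MXI1 and, in PANC1, MXD3 limit what their ratios can show.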
